A study of Mus musculus with 2 samples.

Results

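The 8 genes described here belong to the surface of primordial germ cells (PGCs), from which oocytes and sperm descend, in the mouse embryo. Alpl, Cd9, Epcam, Cd24a and Pecam1 encode surface proteins used to recognise early germ cells or pluripotent cells, and B4galt1, Fut4 and Fut9 encode enzymes that can build SSEA1, the carbohydrate antigen by which these cells were isolated. The genes were chosen by name, and all 8 had a row among the 18877 genes of the expression table. RNA-seq was performed on a single group, E9.5 PGCs, with 2 biological replicates. The cells were untreated, of strain C57BL6, and came from embryos at day 9.5, which the study's methods describe as female. No mutation, transgene or treatment was named. The study isolated the cells by antibody, either by flow cytometry with antibodies to integrin beta 3 (CD61) and SSEA1 or by magnetic beads with anti-SSEA1 alone. Which route gave each replicate, and how many embryos were pooled, was not given in the sources used here. Selection on SSEA1 was therefore shared by both libraries, and SSEA1-negative cells were not analysed here. With 1 group no comparison of conditions was possible, and the comparisons below are between genes within a library and between the 2 replicates. A permutation test of 2 values against 2 cannot give a two-sided p below 0.333, so no p-value is given.

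SSEA1 is the Lewis X trisaccharide, a galactose and a fucose carried on the same N-acetylglucosamine at the end of a glycan chain. Enzymes of the B4galt family add the galactose in the Golgi, and an alpha-fucosyltransferase, in mouse chiefly Fut9 or Fut4, then adds the fucose. The antigen is found on early embryonic cells, PGCs and some blood and neural cells, and it is a sugar, so no single transcript encodes it. Alpl encodes tissue-nonspecific alkaline phosphatase, the enzyme behind the classical histochemical stain of PGCs, which is held at the membrane by a glycosylphosphatidylinositol (GPI) lipid anchor, as is the small mucin-like protein CD24. CD9 is a tetraspanin, a membrane organiser with 4 transmembrane segments, EpCAM is a homophilic adhesion molecule of epithelia and pluripotent cells, and PECAM1 is an adhesion molecule of endothelial, blood and pluripotent cells.

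Expression was given as TPM, a relative abundance in which the reads of a gene are divided by its length and each library is brought to the same sum, so that levels can be compared between genes. The values were whole multiples of 1 read, or 1 read pair, at the exon length of each gene, and 15912464 and 5458694 such reads were recovered in replicates 1 and 2. Replicate 1 was thus 2.92 times deeper. Bracketed ranges are exact Poisson 95% intervals of these reads, or exact Clopper-Pearson intervals for a ratio, and they cover counting error only. All 10 PGC markers checked, Dppa3, Dnd1, Nanos3, Prdm1, Prdm14, Tfap2c, Sox2, Nanog, Pou5f1 and Dazl, reached 1 TPM in both libraries, beside 60.0% of all genes. Dppa3 was highest at 5013 and 5075 TPM. Pou5f1 was lowest at 1.54 and 1.46 TPM, from 33 and 11 reads, and exceeded 39.6% and 39.7% of all genes. RNA of other cells was measured too. The summed level of 5 erythroid markers measured of 7 listed was 3537 and 3331 TPM, with embryonic globin Hba-x highest and Klf1 lowest. Of 7 blood progenitor markers listed, 5 had no row and 2 were measured. The platelet factor Pf4 stood at 84.9 and 83.0 TPM, while the blood regulator Runx1 was at 0 and 0.202 TPM. In bulk samples such as these, fewer cells of a type and less RNA per cell cannot be told apart.

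The start regions of 4 genes are shown because these are the expressed members for which RefSeq gave a promoter window, 250 bases before to 50 after a transcript start on GRCm38.p6. A window was found for 5 of the 8 genes (Alpl, which had 2, B4galt1, Cd9, Epcam and Fut4). The bases printed run 5′ to 3′ on the strand of the gene and end before the first transcript base in either RefSeq or GENCODE M21. Capitals mark GC boxes, the letters GGGCGG on either strand, which are known as a site of Sp family factors.
Epcam (chr17:87635729-87635978, plus strand): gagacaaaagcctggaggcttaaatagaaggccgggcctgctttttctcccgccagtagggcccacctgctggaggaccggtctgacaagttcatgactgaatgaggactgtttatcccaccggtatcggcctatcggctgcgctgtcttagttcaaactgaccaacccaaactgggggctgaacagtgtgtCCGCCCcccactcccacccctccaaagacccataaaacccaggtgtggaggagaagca
Cd9 (chr6:125494792-125495010, minus strand): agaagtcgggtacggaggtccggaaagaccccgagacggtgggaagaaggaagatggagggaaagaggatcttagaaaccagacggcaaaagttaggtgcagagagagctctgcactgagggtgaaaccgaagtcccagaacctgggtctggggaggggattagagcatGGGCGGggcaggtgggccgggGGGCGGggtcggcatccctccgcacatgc
B4galt1 (chr4:40854006-40854234, minus strand): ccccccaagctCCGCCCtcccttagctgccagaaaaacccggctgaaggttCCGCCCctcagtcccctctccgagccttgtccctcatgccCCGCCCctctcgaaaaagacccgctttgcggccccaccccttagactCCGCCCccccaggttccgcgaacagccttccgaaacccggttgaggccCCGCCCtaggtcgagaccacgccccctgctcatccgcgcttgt
Alpl (chr4:137796385-137796634, minus strand): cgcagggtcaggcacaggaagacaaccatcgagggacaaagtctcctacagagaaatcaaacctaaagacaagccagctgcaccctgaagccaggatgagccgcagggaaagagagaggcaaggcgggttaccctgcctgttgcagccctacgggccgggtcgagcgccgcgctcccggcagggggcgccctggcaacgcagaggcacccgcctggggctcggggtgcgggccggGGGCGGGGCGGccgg
The B4galt1 window, on the minus strand, held 5 GC boxes, the most of the 6 windows searched. The first Alpl window held 3, of which 2 overlap each other and 1 lies at the start base and is not printed, the Cd9 window held 2 and the Epcam window 1. The Fut4 window and the second Alpl window held none. A GC box was present in 35.7% of all 32851 RefSeq windows of this length. The GC content was 70% in the first Alpl window, 68.3% for B4galt1, 68% for Fut4, 61.3% for Cd9, 57% for Epcam and 54.3% in the second Alpl window. The median over all windows was 52.7%. None of these 6 windows held a CCAAT box (CCAAT, in 37.4% of all windows) or an octamer (ATTTGCAT, in 1.74%), searched on both strands. A TFAP2 site (GCCNNNGGC, in 16.6% of all windows) was present in the first Alpl window and in those of B4galt1, Cd9 and Fut4. The second Alpl window held a TATA box (TATAAA, in 13.6%) and the Epcam window an E-box (CACGTG, in 7.15%). These are matches of letters and were not tied to binding or to the levels below.

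Of the 8 genes, 6 reached at least 1 TPM in both libraries, beside 60.0% of all genes in the table. The levels spanned from 0 to 160 TPM (plot of TPM by gene and library). Epcam and Cd9 formed the top, Cd24a followed, B4galt1, Pecam1 and Alpl lay at intermediate levels, and Fut9 and Fut4 were lowest. This order was the same in both libraries. The median of log2(TPM + 1) over the 8 genes was 3.60 in replicate 1 and 3.73 in replicate 2, and that over all genes was 1.89 and 1.85.

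**Figure D1:**
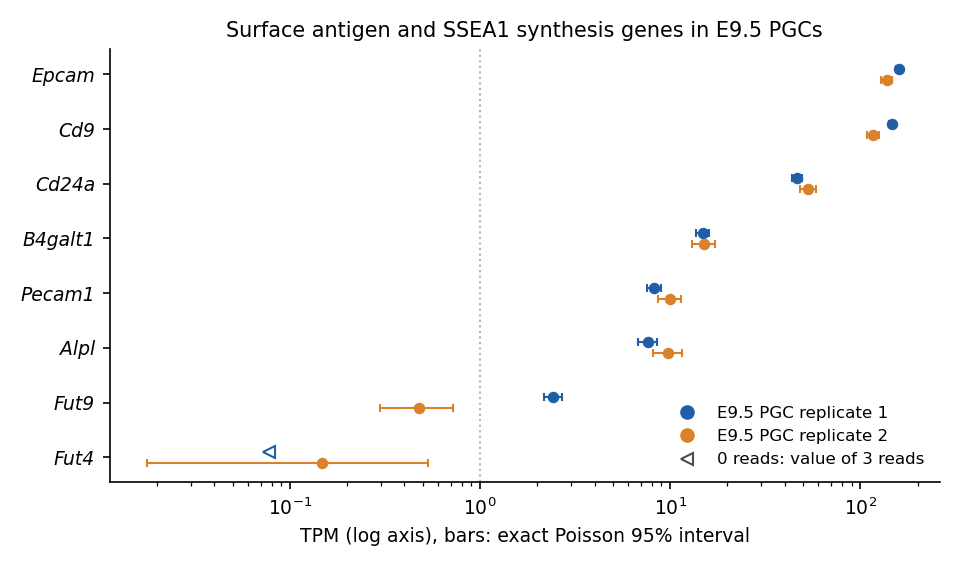
TPM of the 8 genes on a log axis, 1 point per library (blue, replicate 1, orange, replicate 2), with exact Poisson 95% intervals of the recovered reads and a dotted line at 1 TPM; the open triangle is the value that 3 reads would have where 0 were found. Epcam and Cd9 lie above 100 TPM in both libraries, Fut9 falls on either side of 1 TPM, and Fut4 lies below it in both.

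At 5 of 7 steps in this order the library values of the 2 neighbours did not overlap. The 2 exceptions were Epcam with Cd9 and Pecam1 with Alpl, whose library values overlapped. Epcam exceeded Cd9 by 1.09-fold (1.04 to 1.15) in replicate 1 and 1.18-fold (1.07 to 1.30) in replicate 2, and Pecam1 exceeded Alpl by 1.08-fold (0.929 to 1.25) and 1.03-fold (0.822 to 1.29). The other steps were Cd9 over Cd24a, 3.15-fold and 2.20-fold, Cd24a over B4galt1, 3.12-fold and 3.54-fold, and B4galt1 over Pecam1, 1.81-fold and 1.51-fold. Alpl exceeded Fut9 by 3.15-fold in replicate 1 and 20.4-fold in replicate 2. Fut9 in turn lay above Fut4 in each library, although in replicate 2 the interval of their ratio (0.797 to 28.4) included equal levels.

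Fut4 (ENSMUSG00000049307.6, chr9:14748320-14752393, minus strand, GRCm38), a fucosyltransferase gene with a single exon, was near absence. Replicate 1 held 0 reads of Fut4, which allows a level of up to 0.0775 TPM, and replicate 2 held 2 reads, or 0.147 TPM (0.0178 to 0.530). Both values were below the detection level of 1 TPM, and the 2 libraries cannot be told apart at this depth.

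Fut9 (ENSMUSG00000055373.8, chr4:25609332-25800244, minus strand) was the higher of the pair but differed between the replicates. Its level was 2.43 TPM (2.17 to 2.71) from 319 reads in replicate 1 and 0.476 TPM (0.298 to 0.721) from 22 reads in replicate 2. Replicate 1 thus lay above the detection level and replicate 2 below it, with Fut9 exceeding 48.1% of all genes in the one library and 24.5% in the other. In replicate 1 Fut9 exceeded the value of 3 reads of Fut4 by 31.3-fold, a figure without an interval. In replicate 2 it exceeded Fut4 by 3.24-fold (0.797 to 28.4), where the interval includes equal levels. On the log2(TPM + 1) scale Fut4 minus Fut9 was -1.07 ± 0.999 (SD, n = 2).

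Fut9 was the 1 gene of the 8 that differed more than 2-fold between the replicates on the log2(TPM + 1) scale, beside 10.2% of all genes. Among the 7 members with at least 100 reads in both libraries together it was also the 1 past this mark, beside 2.57% of all 9262 such genes. The ratio of replicate 2 to replicate 1 was 0.196 (0.121 to 0.302), a log2 difference of -1.22. With replicate 1 thinned at random to the depth of replicate 2, Fut9 kept 107 reads and 2.37 TPM, and the log2 difference was -1.19. The mean over the replicates, 1.45 ± 1.38 TPM (SD, n = 2), therefore describes neither library.

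Levels of other cell types' markers are given beside Fut9. All 5 macrophage markers were lower in replicate 2, with a summed level of 23.9 TPM in replicate 1 and 12.1 TPM in replicate 2, Fcer1g being highest at 11.0 and 6.16 TPM and C1qb lowest at 1.16 and 0 TPM. Of the 5 endothelial markers measured of 10 listed, 4 were lower in replicate 2, and their sum was 6.53 and 3.18 TPM. The 3 neural markers measured of 6 listed were all higher in replicate 2, with a summed level of 6.41 and 7.05 TPM, with Pax6, the highest, at 3.55 and 3.56 TPM and Tubb3 lowest at 1.30 and 1.44 TPM. Of the 6 epithelial markers measured, 4 were lower in replicate 2 and 2 higher. Of the 5 erythroid markers 3 were lower and 2 higher, and of the 2 blood progenitor markers 1 was lower and 1 higher. Among all 18877 genes, 9688 were lower in replicate 2 and 7715 higher. The part of such cells in the Fut9 values was not tested.

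**Figure D2:**
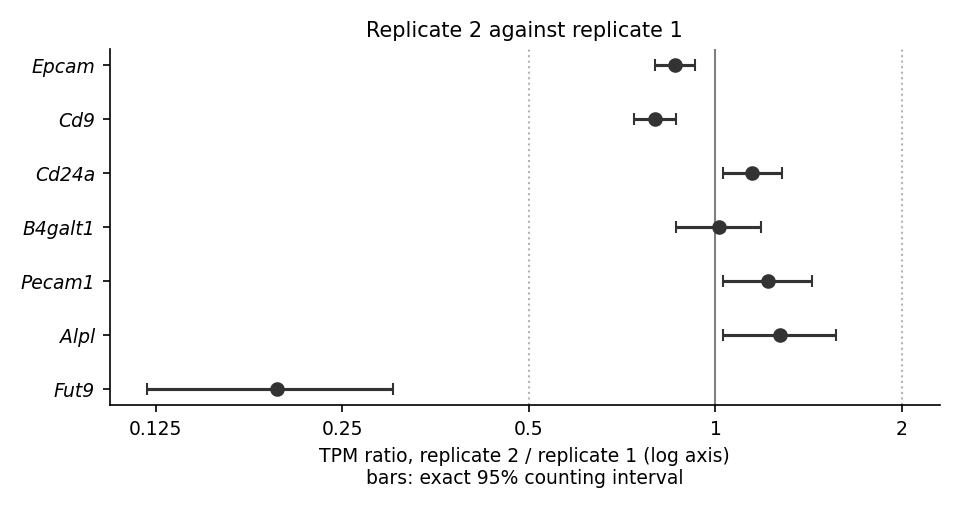
TPM ratio of replicate 2 to replicate 1 for the 7 genes with reads in both libraries and at least 100 reads in all, on a log axis with exact 95% counting intervals; the solid line marks equal levels and the dotted lines 2-fold. Fut9 lies at 0.196, and the other 6 genes lie between 0.799 and 1.27.

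The Fut9 level also depended on the length by which reads were divided. Its gene model holds 13824 exonic bases, longer than 97.0% of the 12679 protein-coding genes of the table, whose median was 4108 bases. The coding part is 1077 bases, or 7.79% of the model, the smallest share of any of the 8 genes. Divided by coding length, the same reads gave 11.3 TPM in replicate 1 and 2.20 TPM in replicate 2. Reads over the noncoding bases were kept in this division, so it raises genes with a small coding share whatever their true level. With the longest coding transcript the values were 2.07 and 0.405 TPM. With coding length Fut9 lay above Alpl (7.12 TPM) and Pecam1 (8.38 TPM) in replicate 1, and below both in replicate 2. The gap between the replicates was left as it was, since both libraries share the length.

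B4galt1 (ENSMUSG00000028413.13, chr4:40804602-40854005, minus strand), which adds the galactose that precedes fucosylation and also serves in lactose synthesis, was the highest of the 3 enzymes and the most even of the 8 genes. It measured 14.9 TPM (13.7 to 16.1) in replicate 1 and 15.0 TPM (13.1 to 17.2) in replicate 2, a mean of 15.0 ± 0.134 TPM (SD, n = 2). The ratio of the replicates was 1.01 (0.862 to 1.19), the one interval among the 7 genes with reads in both libraries and at least 100 in all that included equal levels. Within a library B4galt1 exceeded Fut9 by 6.12-fold (5.33 to 7.03) in replicate 1 and 31.6-fold (20.3 to 51.5) in replicate 2. B4galt1 was thus above Fut9 in both libraries, and the size of the gap followed the difference of Fut9 between them.

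B4galt1 also led its own family. Of the 7 B4galt genes listed, 6 were measured, and 3 reached 1 TPM in both libraries. B4galt5, an enzyme of lactosylceramide synthesis, stood at 12.6 and 9.17 TPM, and B4galt6, which shares that role, at 8.20 and 7.57 TPM. B4galt1 exceeded B4galt5 by 1.18-fold (1.05 to 1.33) and 1.64-fold (1.32 to 2.06), and B4galt6 by 1.81-fold (1.60 to 2.05) and 1.99-fold (1.60 to 2.47). B4galt7, which acts on proteoglycan linkers, measured 0.872 and 2.69 TPM, B4galt4 0.243 and 0.691 TPM, and B4galt2 0.105 and 0 TPM.

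Of 11 fucosyltransferases listed, 8 were measured and 4 reached 1 TPM in both libraries, namely Fut10, Fut8, Fut11 and Pofut1. All 4 exceeded Fut9 by mean level, although Fut11 and Pofut1 were below it in replicate 1. Fut10 measured 4.54 and 6.21 TPM, which was 1.87-fold (1.57 to 2.23) and 13.1-fold (8.18 to 21.7) above Fut9. Fut8, which adds the core fucose of N-glycans and does not make Lewis X, measured 4.63 and 2.65 TPM, or 1.91-fold (1.63 to 2.23) and 5.57-fold (3.41 to 9.44) above Fut9. Fut11 was at 2.03 and 1.69 TPM. Pofut1 and Pofut2, which place fucose directly on proteins such as Notch and thrombospondin repeats, were at 1.63 and 1.78 TPM and at 0.708 and 1.67 TPM. Sec1 was at 0.213 and 0 TPM. Fut4 was thus the lowest of the measured family by mean level while 4 genes stood above Fut9.

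The supply of the sugar donors was measured too. Of the 6 genes that make, salvage or carry GDP-fucose, 4 reached 1 TPM in both libraries. Tsta3, the last enzyme of the de novo route, was highest at 12.0 and 9.16 TPM, followed by Fpgt (4.79 and 2.14 TPM) and Fuk (3.38 and 3.16 TPM) of the salvage route and by Gmds (2.01 and 2.77 TPM), the first de novo enzyme. Slc35c1, the Golgi GDP-fucose transporter, was at 0.353 and 0.0913 TPM, and Slc35c2 at 0.726 and 1.38 TPM. For UDP-galactose, Galk1 measured 22.9 and 21.3 TPM, Galt 14.3 and 15.1 TPM, and Ugp2 13.8 and 12.3 TPM, while Slc35a2, the Golgi UDP-galactose transporter, was at 0.423 and 0.0633 TPM. The transporter of each donor was therefore the lowest of these genes in mean level.

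Enzymes that extend the chain on which Lewis X is carried were detected as well, 5 of the 6 measured of 7 listed. B3gnt2, the main polylactosamine synthase, measured 12.8 and 9.02 TPM, and Gcnt2, which branches such chains, 6.64 and 8.27 TPM. B3gnt4 (3.33 and 3.57 TPM), B3gnt5 (3.32 and 2.88 TPM) and B3gnt8 (2.19 and 2.17 TPM) followed, and B3gnt7 lay below detection at 0.636 and 0.651 TPM. Enzymes that cap the same chain ends with another sugar were detected in 3 of 5 cases. St6gal1 stood at 4.73 and 5.78 TPM, St3gal6 at 3.36 and 4.18 TPM, Ggta1 at 1.94 and 1.02 TPM, St3gal3 at 1.22 and 0.648 TPM, and St3gal4 at 0.684 and 1.13 TPM. St6gal1 and St3gal6 exceeded Fut9 in both libraries.

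**Figure D3:**
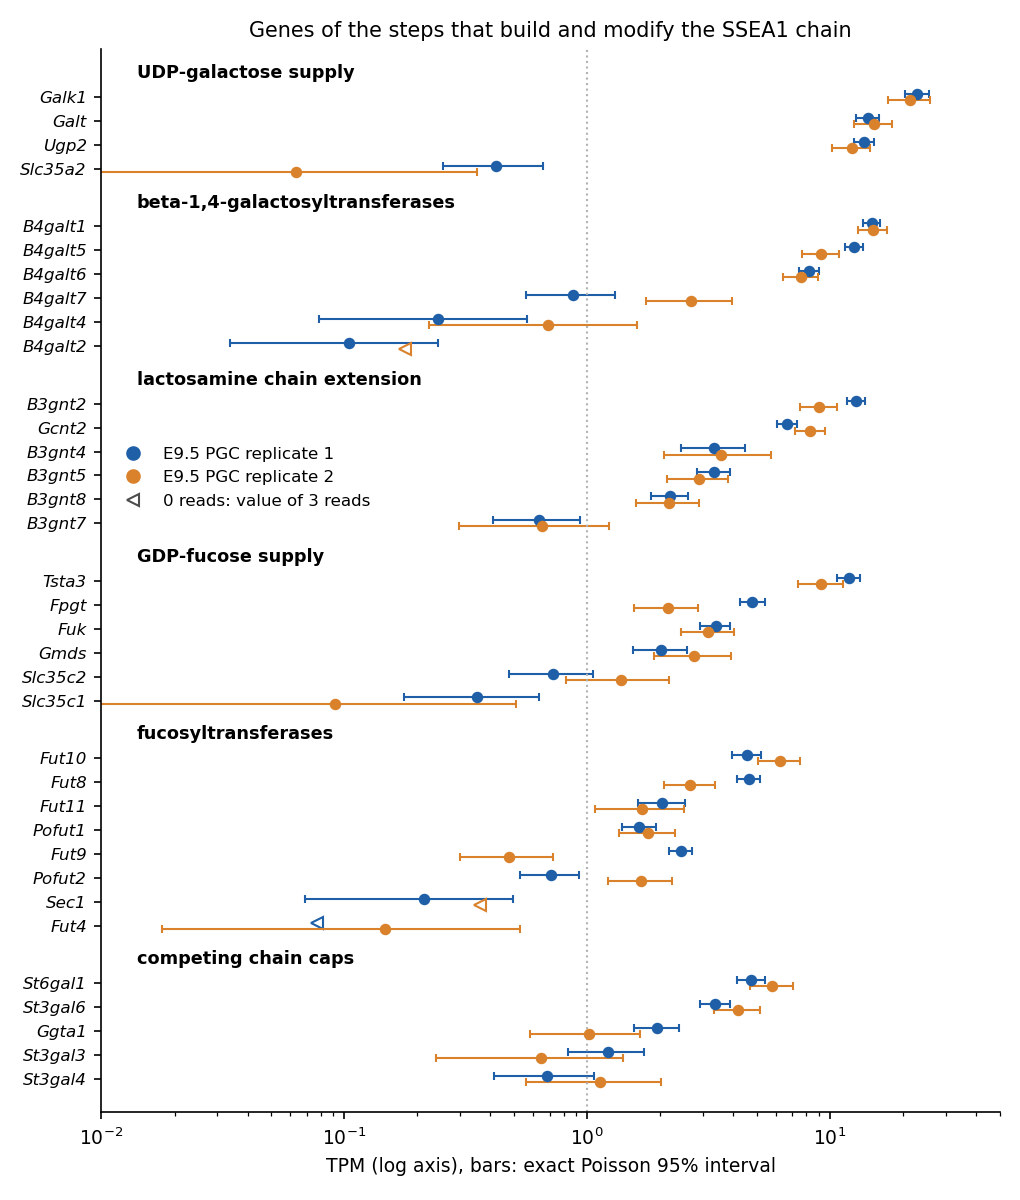
TPM of genes of 6 steps that build or modify the SSEA1 chain, on a log axis, 1 point per library with exact Poisson 95% intervals; open triangles stand for 3 reads where 0 were found, and the bars of B3gnt2 and St3gal6 rest on rounded reads. B4galt1 leads the galactosyltransferases at 14.9 and 15.0 TPM. Fut9 lies below Fut10 and Fut8 in both libraries, and below Fut11, Pofut1 and Pofut2 in replicate 2 only. Fut4 is the lowest fucosyltransferase by mean level.

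For the globo-series antigens SSEA3 and SSEA4, which mark human pluripotent cells, 3 of 5 listed enzymes were measured and all 3 were detected. Ugcg, the glucosylceramide synthase, stood at 14.4 and 8.84 TPM, B3galnt1 at 7.37 and 8.41 TPM, and St3gal2 at 4.72 and 6.11 TPM.

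Alpl (ENSMUSG00000028766.10, chr4:137741733-137796384, minus strand) was present at a moderate level. It measured 7.64 TPM (6.79 to 8.57) from 293 reads in replicate 1 and 9.72 TPM (8.12 to 11.5) from 131 reads in replicate 2, a mean of 8.68 ± 1.47 TPM (SD, n = 2). Both values lay above the median gene, with 68.3% and 72.7% of all genes below. The ratio of replicate 2 to replicate 1 was 1.27 (1.03 to 1.57). Alpl was the 1 alkaline phosphatase measured of 4 listed, and the intestinal, embryonic and related enzymes were not analysed here. Levels of the transcript are not levels of enzyme activity, on which the histochemical stain depends.

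The genes that build the GPI anchor on which Alpl and CD24 depend were largely detected, 20 of the 23 measured of 26 listed. Pigp was highest at 196 and 180 TPM, followed by Dpm3 (101 and 106 TPM), Pigf (37.9 and 43.0 TPM) and Pigx (38.6 and 30.5 TPM). The 4 lowest were Pign (1.26 and 1.32 TPM), Pigc (0.767 and 1.62 TPM), Pigw (0.847 and 1.20 TPM) and Pigu (0.564 and 0.770 TPM).

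Epcam (ENSMUSG00000045394.9, chr17:87635979-87651129, plus strand) had the highest deposited level of the 8 genes, although Cd9 exceeded it under both other choices of gene length. It measured 160.0 TPM (154 to 166) from 3103 reads in replicate 1 and 138 TPM (129 to 147) from 940 reads in replicate 2, a mean of 149 ± 15.7 TPM (SD, n = 2). More than 94% of genes lay below it in each library, 95.3% and 94.9%. The ratio of the replicates was 0.861 (0.800 to 0.927). The reads of Epcam were whole at a length of 2040 bases, that of a single transcript, and not at the 2195 exonic bases of all its transcripts, so another gene model than GENCODE M21 appears to have set its length.

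Partners of EpCAM and the proteases that cleave it were detected for 9 of the 10 genes measured of 12 listed. Psenen, a gamma-secretase subunit, was highest at 180 and 195 TPM. Spint2, a protease inhibitor, followed at 25.4 and 22.7 TPM, and the sheddases Adam10 and Adam17 measured 13.6 and 7.61 TPM and 8.96 and 6.44 TPM. Among the lowest were Aph1a (2.81 and 2.43 TPM) and Ncstn (1.67 and 1.96 TPM), which encode gamma-secretase subunits as Psenen does, and Spint1 (0.532 and 0 TPM). Psenen thus lay far above Aph1a and Ncstn in both libraries.

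Since EpCAM is also an antigen of epithelia, epithelial markers are given beside it. Of 8 listed, 6 were measured and 4 reached 1 TPM in both libraries. Esrp1, a splicing factor of epithelial and pluripotent cells, was highest at 22.6 TPM in both libraries, and the keratin Krt7 was lowest at 0.224 and 0.212 TPM. None was at 0 in either library, and their summed level was 38.2 and 38.6 TPM. The part of epithelial cells in the Epcam level was not tested.

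Cd9 (ENSMUSG00000030342.8, chr6:125460266-125494791, minus strand) was close behind. It measured 146 TPM (141 to 152) from 2842 reads in replicate 1 and 117 TPM (109 to 125) from 799 reads in replicate 2, a mean of 132 ± 20.7 TPM (SD, n = 2). The ratio of the replicates, 0.799 (0.738 to 0.865), was the lowest after that of Fut9. Cd9 shares 218 of its 2044 exonic bases with Gm26728, a noncoding gene on the opposite strand that measured 15.3 and 10.2 TPM from 434 and 102 reads. Whether strand was used in counting was not given in the sources used here, and without it reads of the shared bases cannot be assigned to either gene. Of the 50-base words of Cd9 transcripts, 14.4% also occurred in transcripts of 173 other genes. These words were searched on both strands, so bases shared with Gm26728 can be counted among them. Because CD9 is abundant on platelets, the level of Pf4, 84.9 and 83.0 TPM, stands beside it. Pf4 was 1 of 2 blood progenitor markers measured of 7 listed, and the other, Runx1, was at 0 and 0.202 TPM. The part of platelets in the Cd9 level was not tested.

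Cd9 was the highest tetraspanin in both libraries (plot of the tetraspanin family). Of 23 listed, 21 were measured and 15 reached 1 TPM in both libraries. Tspan6 was next at 72.5 and 66.5 TPM, so that Cd9 exceeded it by 2.02-fold (1.89 to 2.15) and 1.76-fold (1.57 to 1.98), and Tspan3 (64.6 and 52.5 TPM) and Tspan13 (48.7 and 44.9 TPM) followed. Cd81, a close relative of Cd9, which acts with it in gamete fusion, measured 6.50 and 2.60 TPM. Cd9 exceeded Cd81 by 22.5-fold (19.3 to 26.3) and 45.0-fold (30.3 to 70.0). Cd81 was singled out after its values were seen. The lowest were Tspan15 (0.450 and 0.548 TPM), Tspan9 (0.296 and 0.481 TPM), Tspan7 (0.208 and 0.423 TPM) and Tspan33 (0.0810 and 0.173 TPM). Of the immunoglobulin-type partners of CD9, Ptgfrn measured 2.68 and 1.80 TPM and Igsf8 0.726 and 1.03 TPM.

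**Figure D4:**
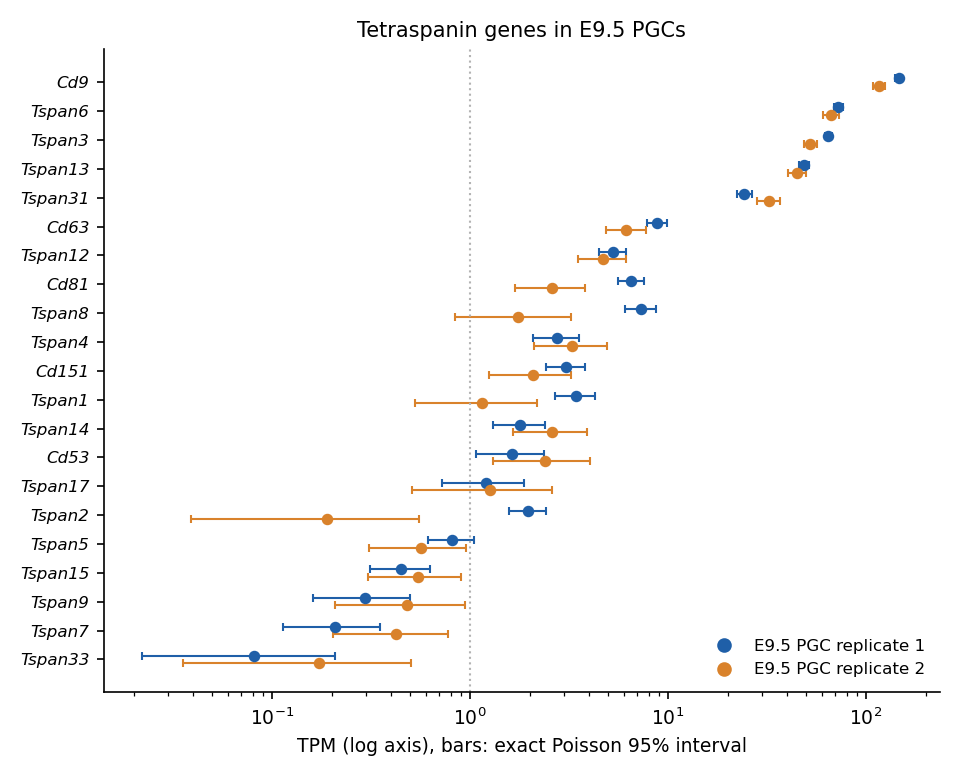
TPM of the 21 measured tetraspanin genes on a log axis, ordered by mean, 1 point per library with exact Poisson 95% intervals and a dotted line at 1 TPM. Cd9 lies at 146 and 117 TPM, above Tspan6 at 72.5 and 66.5 TPM, and Cd81 lies at 6.50 and 2.60 TPM.

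Cd24a (ENSMUSG00000047139.9, chr10:43578284-43584265, plus strand) was the next of the 8 genes. It measured 46.4 TPM (43.7 to 49.2) from 1138 reads in replicate 1 and 53.2 TPM (48.5 to 58.3) from 459 reads in replicate 2, a mean of 49.8 ± 4.82 TPM (SD, n = 2). The ratio of the replicates was 1.15 (1.03 to 1.28). Its coding part is 363 of 2580 exonic bases, 14.1% of the model. Dividing by coding length, with the reads over noncoding bases kept, raised it to 120 and 136 TPM. That was above Epcam, at 126 and 107 TPM, in replicate 2 but below it in replicate 1. The level of Cd24a relative to Epcam therefore depended on the length used. A share of 2.75% of its 50-base words also occurred, on either strand, in transcripts of 1 other gene, Gm6212. CD24 is likewise carried by red blood cell precursors and neural cells, whose summed markers were 3537 and 3331 TPM and 6.41 and 7.05 TPM, and their part in its level was not tested.

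Pecam1 (ENSMUSG00000020717.19, chr11:106654217-106750628, minus strand) lay next to Alpl. It measured 8.23 TPM (7.51 to 8.99) from 487 reads in replicate 1 and 9.99 TPM (8.68 to 11.4) from 208 reads in replicate 2, a mean of 9.11 ± 1.25 TPM (SD, n = 2). The ratio of the replicates was 1.21 (1.03 to 1.43). Endothelial cells carry Pecam1 in abundance, and 1 of the 5 endothelial markers measured of 10 listed reached 1 TPM in both libraries. The highest was Egfl7 at 1.82 and 2.17 TPM and the lowest Cldn5 at 0.446 and 0.212 TPM. Emcn, named after its values were seen, was at 2.12 TPM in replicate 1 and at 0 in replicate 2. The sum of these 5 markers was 6.53 and 3.18 TPM, and the part of endothelial cells in the Pecam1 level was not tested. In Pecam1 transcripts 1.54% of the 50-base words were shared, on either strand, with 475 other genes.

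Of 8 other antigens used in cell sorting, not all of them for PGCs, 7 were measured and 5 were detected. Itgb3, which encodes the CD61 antigen named in the sorting, measured 6.01 and 6.84 TPM, and Kit, the receptor on which PGC survival depends, 8.84 and 7.96 TPM. These were near the levels of Pecam1 and Alpl. Bst2 stood at 17.9 and 19.5 TPM, the adhesion gene Cdh1 at 18.0 and 14.0 TPM, and Prom1 at 4.79 and 3.71 TPM, while Podxl (0.863 and 1.25 TPM) and Icam1 (0.0724 and 0 TPM) fell short. Across the pathway lists together, 74 of 98 genes that were not among the 8 reached 1 TPM in both libraries, or 75.5%, against 60.0% of all genes.

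Between the replicates, 3 of the 8 genes were lower in replicate 2 (Epcam, Cd9 and Fut9) and 5 were higher. Of all 18877 genes, 9688 were lower and 7715 higher. For 6 of the 7 genes with reads in both libraries and at least 100 in all, the counting interval of the ratio left out equal levels, as it did for 48.5% of all 9262 genes with at least 100 reads, but apart from Fut9 these ratios stayed between 0.799 and 1.27. The cause of these differences was not tested.

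The length chosen for each gene altered the order at the top (plot of 3 length choices). The reads were the same under each choice, so coding length raises genes with a large noncoding part. With coding length the order by mean was Cd9 (160 and 127 TPM), Cd24a and Epcam, which held in full in neither library, since Epcam exceeded Cd24a in replicate 1 and Cd24a exceeded Cd9 in replicate 2. With the longest coding transcript Cd9 was again first (182 and 145 TPM) and Epcam second (120 and 103 TPM). Under the latter choice the means of Pecam1 (11.2 and 13.5 TPM) and B4galt1 (11.8 and 12.0 TPM) also changed places, while their library values overlapped. By mean, Alpl, Fut9 and Fut4 held the last 3 places under all 3 choices.

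**Figure D5:**
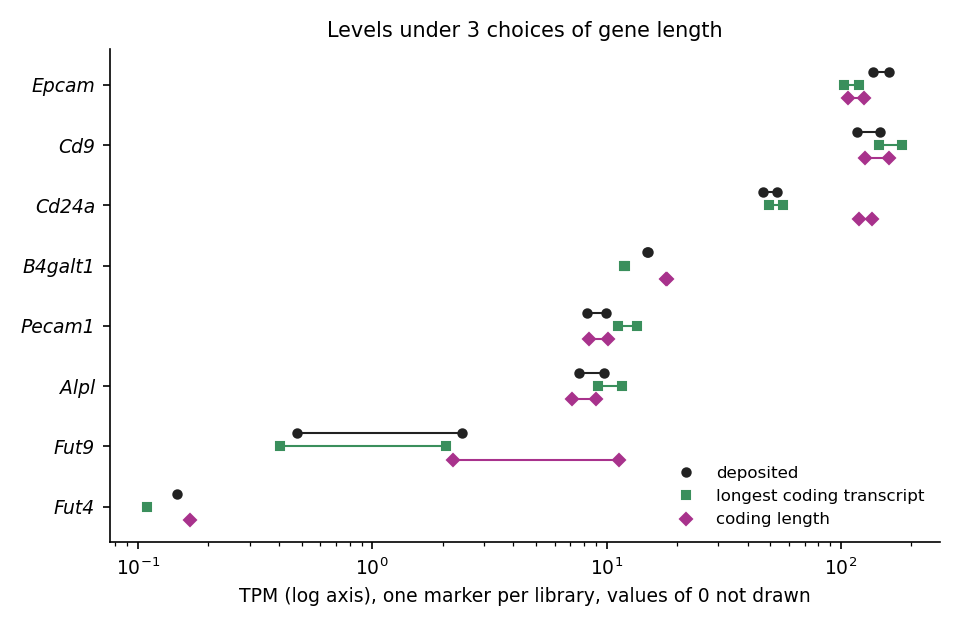
TPM of the 8 genes as deposited (black), with reads divided by the longest coding transcript (green) and by the coding length (purple), on a log axis, 1 marker per library joined by a line, values of 0 not drawn. Cd24a and Fut9 move up most with coding length, Cd24a to 120 and 136 TPM and Fut9 to 11.3 and 2.20 TPM.

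For each of the 8 genes the 2 protein-coding genes with the most similar pair of values, by Euclidean distance of log2(TPM + 1) over the 2 libraries, were listed. Epcam was nearest to Nsmce2 (158 and 136 TPM) and Mrpl20 (156 and 138 TPM), and Cd9 to Ndufa9 (149 and 113 TPM) and Ndufab1 (139 and 115 TPM). Cd24a was nearest to Cdc16 and Idh3b, B4galt1 to Capza1 and Faap20, Pecam1 to Slc2a3 and Tsnax, and Alpl to Tnpo3 and Liph. Fut9 was nearest to Cnpy3 (2.33 and 0.450 TPM) and Atxn7l3 (2.58 and 0.508 TPM), and Fut4 to Plpp7 and 1700067K01Rik, both at 0 in replicate 1. The distances ran from 0.00365 to 0.0709, and with 2 libraries they describe likeness of level alone.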

How the data were processed

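Total RNA of SSEA1-isolated E9.5 PGCs was sequenced in 2 libraries, labelled as biological repetitions of 1 group. The labels name an NEBNext Ultra library kit, whereas the methods describe Smart-seq2 cDNA, so the chemistry is uncertain, and amplification by either could favour some transcripts. Per the methods, the authors aligned reads to mm10 with Hisat2 and counted them with featureCounts, and deposited 1 TPM value per gene and library. The submitters' processing notes also name Bowtie2, RSEM, DESeq2 and R 3.4.2, without a role. The annotation, strand setting and handling of multi-mapped reads are not given in the sources used here. TPM is relative, so abundant genes lower all others.

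From the deposited TPM, reads were recovered as whole multiples of 1 read at the summed exon length of GENCODE M21 (GRCm38). Of values under 50 reads, 96.7% and 95.8% were whole to within 0.02, where chance gives 4%. A gene ID was matched for 18748 of 18877 symbols, and 17 symbols were dates. Of the 142 genes in the lists, 133 had whole reads. The columns summed to 998792 and 998955 TPM. A 0 is given with the value of 3 reads as its upper limit, and for Fut4 with the exact Poisson limit as well. Detection was at least 1 TPM in both libraries, and a difference between replicates was more than 2-fold on log2(TPM + 1), with a pseudocount of 1. The recovery was tested on simulated data. No count test was run, since the deposited values are TPM and there is 1 group.

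The 8 genes and the pathway and marker lists were chosen with earlier results of these data known. Named are all 8 genes, every measured gene of lists with at most 8 genes, the 4 highest and 4 lowest of a longer pathway list, the highest and lowest of a marker list, and the 2 nearest genes of each member. Some genes that this rule names are not reported here. Alternatives were another pseudocount, filters and detection levels, rescaling, other gene lengths, thinning, and leaving out each replicate. Python 3.11.15, numpy 2.4.6, pandas 2.3.3, scipy 1.17.1 and matplotlib 3.10.9 were used.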

Additional observations from a re-analysis of the deposited data

How the results depend on the processing

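The median log2(TPM + 1) of the 8 genes, 3.66 as reported, was 3.55 with a pseudocount of 0.1, 3.97 after rescaling over genes of at least 200 bases outside the mitochondrial genome, and 3.90 with coding length, and it ran from 3.60 to 3.73 with a replicate left out. Rescaling multiplied all genes of a library by the same factor. The median of the single rises in log2(TPM + 1) was 0.25 over all genes and 0.31 over the 8 genes. The pseudocount makes these rises smaller at low levels. The order kept 5 of 8 places with coding length and 4 with the longest coding transcript, and all 8 with a replicate left out. With a pseudocount of 0.1, 2 genes differed more than 2-fold between replicates, as Fut4, with 2 reads in all, joined Fut9. Detection held for 6 genes, or 6 to 7 with a replicate left out. Of the pathway genes, 74 as reported, 33 reached a level of 5 TPM, and 76 to 82 were detected with a replicate left out. Fut4 minus Fut9 was -2.94 with a pseudocount of 0.1, -2.54 with coding length, and from -1.78 to -0.36 with a replicate left out. Epcam, above Cd9 as deposited, was below it with coding length (126 and 107 against 160 and 127 TPM) and with the longest transcript (120 and 103 against 182 and 145 TPM), and B4galt1, above Pecam1 as deposited, had a mean of 11.9 against 12.3 TPM with the longest transcript. No paired analysis was possible because the samples form 1 group. Few reads limit the precision of the levels of Fut4 and, in replicate 2, of Fut9.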

Other observations

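Among the 32 genes of the table whose symbol is Cd and a number, Cd9 was the highest, at 132 ± 20.7 TPM (SD, n = 2). Of these 32 genes, 17 reached 1 TPM in both libraries, 7 had a mean of at least 10 TPM, and 1 was at 0 in both, with a median of the means of 2.29 TPM. After Cd9 came Cd59a, at 107 ± 6.32 TPM, and Cd59b, at 54.3 ± 14.9 TPM, a duplicated pair of GPI-anchored inhibitors of complement; reads shared by the copies were not measured. Cd164, a sialomucin, measured 52.1 ± 5.63 TPM, above Cd24a at 49.8 ± 4.82 TPM. Cd320, the receptor for vitamin-bound transcobalamin, measured 23.4 ± 0.0346 TPM, and Cd276 10.7 ± 3.08 TPM. This group was listed after the values were seen.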
